A study of Mus musculus with 8 samples.

Results

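The comparison described here set PLA4, a mouse lung squamous cell carcinoma (LUSC) line in which the chemokine receptor gene Ackr3 was nearly silent, against PL1, a line that expressed it. Both come from genetically engineered mouse models of LUSC, and the labels name the lines without spelling out the alleles behind the letters PL and PLA. Each line had 2 libraries of bulk RNA-seq, so the pair holds 4 of the 8 libraries of the series. The other 4 libraries are 2 of the line PLA and 2 of the line PL12. No treatment, time or age is given for any library, and the labels do not say whether replicates were grown apart, so a p-value here reflects only how far the deposited libraries differ, and that spread may be technical. Each is a single line, so a difference between PLA4 and PL1 is a difference between 2 lines, and the state of Ackr3 cannot be told apart from any other difference between them.

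The pair was chosen on values of these data, namely the closeness of its profiles and the level of Ackr3, and those values are given as description. Over log2(CPM + 1), where CPM is the count relative to the TMM-scaled library size, the mean correlation across genes between libraries of PLA4 and PL1 was 0.960, with single pairs of libraries at 0.954 to 0.967. The other 5 pairs of lines averaged 0.920 to 0.944. Genes are not independent replicates, and most pairs of lines have a line in common. Ackr3 was listed with 0.387 and 0.228 CPM in the PLA4 libraries, against 86.3 and 33.1 CPM in PL1. In PLA it stood at 0.0487 and 0.0254 CPM and in PL12 at 25.3 and 26.3 CPM. Both PLA4 libraries lay below both PL1 libraries, and the PL1 libraries differed from each other by more than those of any other line.

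ACKR3 is an atypical chemokine receptor that does not couple to G proteins in the usual way. It binds and removes CXCL12, and also adrenomedullin, and so shapes how much ligand reaches CXCR4 and the adrenomedullin receptors. Squamous cell carcinoma keeps features of stratified epithelium, among them basal keratins, desmosomes and, to a varying degree, the program of cornification.

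The 4 libraries held 132170441 and 142458281 counts for PLA4 and 88993934 and 107042196 for PL1, so that 3 counts over both libraries of a line, the floor used below for a line at 0, correspond to 0.0110 CPM in PLA4 and 0.0150 CPM in PL1. Markers of squamous cells were high in both lines, with Krt5 at 4806 and 5932 CPM in PLA4 and 5250 and 2644 CPM in PL1. The 10 immune markers summed to 1.74 and 1.38 CPM in PLA4 and 1.55 and 1.42 CPM in PL1, and 4 of them were at 0 in all 4 libraries. The 8 fibroblast markers summed to 28.6 and 18.9 CPM in PLA4 and to 8.32 and 295 CPM in PL1, where replicate 2 held Col1a1 at 254 CPM. Replicates of these lines were less alike than those of the other lines. Over 2-fold differences in CPM + 1 between the libraries of a line were found for 1404 genes in PLA4 and 1144 in PL1, but for 8 in PLA and 59 in PL12. Krt8, a keratin of simple epithelium, stood at 1686 CPM in PLA4 replicate 1 and 56.1 CPM in replicate 2.

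A small set of genes separated PLA4 from PL1 beyond this spread. Bmp5, a secreted ligand of the bone morphogenetic protein family, Itgb8, the integrin subunit that pairs with the alpha v chain and activates latent TGF-beta, and Edar, the receptor for ectodysplasin in skin appendages, rose in PLA4. Sorcs1, a sorting receptor of the Vps10 family, fell in PLA4, as did the long noncoding RNA gene Gm10451 and 4 genes of the Y chromosome. These 9 genes, 0.0523% of the 17198 tested, passed edgeR's quasi-likelihood test on the 4 libraries (adjusted p under 0.05 by Benjamini-Hochberg), 3 higher (0.0174%) and 6 lower (0.0349%). They are referred to as called genes.

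Bmp5 stood at 103 and 80.3 CPM in PLA4 and had 0 counts in PL1, a level at least 6092-fold higher when PL1 is set to the floor (adjusted p = 0.0408, edgeR). PLA held 0.0812 and 0.0592 CPM and PL12 0.0409 and 0 CPM, so PLA4 was the only one of the 4 lines with Bmp5 above 0.1 CPM. Itgb8 stood at 165 and 108 CPM in PLA4 against 0.0345 and 0.0441 CPM in PL1, a log2 fold change of 11.70 ± 0.44 (SE, adjusted p = 0.0336, edgeR). Both other lines expressed it, at 6.59 and 6.91 CPM in PLA and 8.98 and 6.48 CPM in PL12, so PL1 was the line that lacked it. Edar stood at 24.9 and 30.3 CPM in PLA4 against 0.230 and 0.220 CPM in PL1 (log2 fold change 6.93 ± 0.32, adjusted p = 0.0378, edgeR). Sorcs1 stood at 0.0619 and 0.0692 CPM in PLA4 against 19.8 and 29.4 CPM in PL1 (log2 fold change -8.53 ± 0.44, adjusted p = 0.0378, edgeR). Gm10451 (chromosome 12) stood at 0.00774 and 0.00692 CPM in PLA4 against 7.23 and 8.03 CPM in PL1 (adjusted p = 0.0485, edgeR), and its levels in PLA were 14.8 and 15.6 CPM with 0 counts in PL12. For each of these 5 genes the gap between the lines was far wider than the distance between libraries of a line.

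**Figure D1:**
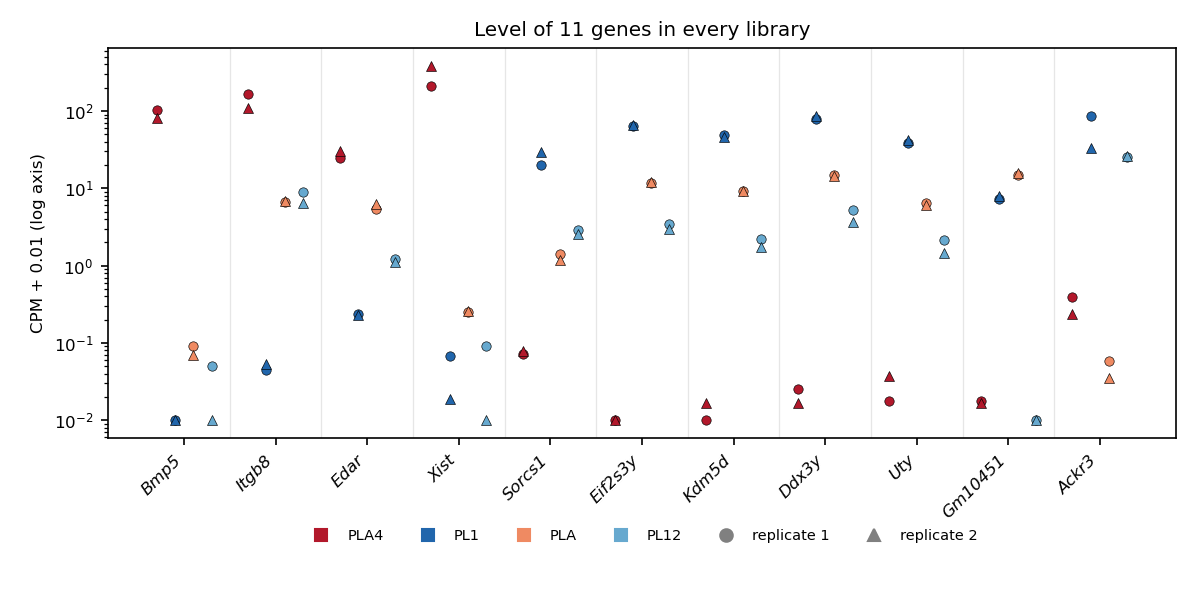
Levels of the 9 called genes, Xist and Ackr3 in every library, as CPM + 0.01 on a log axis, with colours for the lines and circles and triangles for replicates 1 and 2. In each gene the 2 PLA4 libraries lie on one side of the 2 PL1 libraries. Edar and Sorcs1 keep that order between PLA and PL12, as do Bmp5 and Xist at levels under 1 CPM. Ackr3 keeps it too, by the choice of the pairs.

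The genes called on 4 libraries rest on 2 residual degrees of freedom. A fit on all 8 libraries, which gives each line its own mean and leaves 4 residual degrees of freedom, called 1593 of 18648 genes between PLA4 and PL1 (8.54%), 860 higher and 733 lower (4.61% and 3.93%). It borrows part of its spread from PLA and PL12, whose replicates were closer. All 9 genes were among them and were also called by DESeq2 on the 4 libraries, which called 1482 genes (9.15%). Without any 1 of the 4 libraries edgeR called 0 genes, on 1 residual degree of freedom. An unadjusted p under 0.05 was reached by 2613 genes (15.2%).

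The upstream sequences of Edar and Sorcs1, the genes called in the same direction in both pairs of lines, and of Bmp5, expressed in PLA4 alone, are shown because each gene was near 0 in 1 of the lines. They are the 250 bases before the start that RefSeq gives on GRCm38.p6, read on the gene's strand from 5′ to 3′, with CG dinucleotides, the sites of DNA methylation, in capitals. The window of Edar is chr10:58675697-58675946 on the minus strand, that of Sorcs1 chr19:50678647-50678896 on the minus strand and that of Bmp5 chr9:75775115-75775364 on the plus strand.
Edar: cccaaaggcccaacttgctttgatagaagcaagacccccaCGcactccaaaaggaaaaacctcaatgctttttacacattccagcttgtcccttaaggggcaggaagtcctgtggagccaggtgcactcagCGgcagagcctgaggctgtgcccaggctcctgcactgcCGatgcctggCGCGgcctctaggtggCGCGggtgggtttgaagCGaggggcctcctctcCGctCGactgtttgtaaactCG
Sorcs1: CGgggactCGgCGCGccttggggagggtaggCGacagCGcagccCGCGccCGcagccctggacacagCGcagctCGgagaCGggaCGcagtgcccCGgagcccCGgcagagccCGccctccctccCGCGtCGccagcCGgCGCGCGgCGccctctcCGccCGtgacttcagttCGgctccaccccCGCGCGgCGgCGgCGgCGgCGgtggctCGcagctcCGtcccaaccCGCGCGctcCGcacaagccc
Bmp5: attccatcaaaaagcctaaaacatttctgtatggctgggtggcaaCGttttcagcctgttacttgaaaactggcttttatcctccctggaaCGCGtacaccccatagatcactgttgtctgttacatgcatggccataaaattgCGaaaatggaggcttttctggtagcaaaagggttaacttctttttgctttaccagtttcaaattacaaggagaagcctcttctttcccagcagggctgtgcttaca
The motif CG, which reads the same on both strands, occurred 11 times in the Edar window, 41 times in that of Sorcs1 and 4 times in that of Bmp5. Of 27025 such windows in the RefSeq table, 91.7% held at least 1 CG, 36.0% as many as Edar or more, 1.07% as many as Sorcs1 and 61.9% as many as Bmp5. Methylation was not measured, and the start a cell line uses may differ from the one listed.

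Genes of the Y chromosome were expressed in PL1 and nearly silent in PLA4. The Y-linked genes encode Eif2s3y, a subunit of a translation initiation factor, Kdm5d, a histone H3K4 demethylase, Ddx3y, an RNA helicase, and Uty, a relative of the histone demethylase Kdm6a. Eif2s3y had 0 counts in PLA4 against 63.6 and 65.2 CPM in PL1, at least 5882-fold lower with PLA4 set to the floor (adjusted p = 0.0378, edgeR). Kdm5d stood at 0 and 0.00692 CPM in PLA4 against 49.4 and 46.3 CPM in PL1, with 1 count in PLA4, so that the PL1 level was 13050 times as high with a 95% counting interval of 2341 to 515300. Ddx3y stood at 0.0155 and 0.00692 CPM in PLA4, 3 counts in all, against 78.8 and 86.1 CPM in PL1, a ratio of 7565 for PL1 over PLA4 with a counting interval of 2588 to 36680. Uty stood at 0.00774 and 0.0277 CPM in PLA4 against 38.7 and 42.4 CPM in PL1. Each of the 4 genes was called lower, with adjusted p of 0.0233 to 0.0378 in edgeR. The Y-linked genes were thus at or near 0 in both PLA4 libraries and expressed in both PL1 libraries.

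Xist, the noncoding RNA that coats and silences an X chromosome, ran the other way. It stood at 208 and 385 CPM in PLA4 against 0.0575 and 0.00881 CPM in PL1 (log2 fold change 13.19 ± 0.84, adjusted p = 0.0573 in edgeR on 4 libraries and 0.00225 on 8). PLA held 0.244 and 0.245 CPM and PL12 0.0818 and 0 CPM. In the other pair all 4 Y-linked genes were higher in PLA, with Ddx3y at 14.9 and 14.3 CPM in PLA against 5.26 and 3.61 CPM in PL12. PLA4 was therefore the only one of the 4 lines with Xist above 1 CPM and with the Y-linked genes under 0.1 CPM. The X-linked partners of the 4 genes, named after their values were seen, stood close in both lines. Ddx3x was at 566 and 581 CPM in PLA4 and 695 and 623 CPM in PL1, and Kdm6a at 48.1 and 41.7 CPM in PLA4 and 50.5 and 60 CPM in PL1. The labels give no sex for the animals behind the lines.

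Below the called genes, many genes had libraries that did not overlap between the lines, mostly by modest amounts. Both PLA4 libraries lay on one side of both PL1 libraries for 8730 genes (50.8% of those tested), 4490 higher (26.1%) and 4240 lower (24.7%). The pair was described by this separation, so the count is given with no test. With 2 libraries per line, a sizeable share of genes would lie apart in this way without any difference between the lines. A gap of over 2-fold in CPM + 1 between the nearest libraries of the lines was left in 532 genes, 334 higher (1.94%) and 198 lower (1.15%). That count was 1134 without PLA4 replicate 1, 1181 without PLA4 replicate 2, 1209 without PL1 replicate 1 and 888 without PL1 replicate 2. With a library left out a gap can only stay or widen at a fixed scaling, so a higher count was built in. In CPM + 1, a gap of over 8-fold was left in 52 genes and one of over 32-fold in 9. The added 1 narrows gaps of genes near 0 in one of the lines, so these counts are no higher than in CPM itself.

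Some genes were on in one line and off in the other, with at least 5 CPM in both libraries of the first and under 0.1 CPM in both of the second. In PLA4 10 genes were on that were off in PL1. They were Bmp5, Itgb8, Xist, Efemp1, Cyp27a1, Mall, Ly6k, Dsc3 and the noncoding Gm28723 and Gm53. Efemp1, which encodes the matrix protein fibulin-3, stood at 442 and 158 CPM in PLA4 against 0.0345 and 0.0529 CPM in PL1. Cyp27a1, the sterol 27-hydroxylase, stood at 18.4 and 27.2 CPM in PLA4 against 0 and 0.0176 CPM in PL1. Mall, a membrane raft protein, differed within PLA4, where its libraries held 45.9 and 6.51 CPM, and PL1 held 0.0460 and 0.00881 CPM. Ly6k, which encodes a GPI-anchored surface protein, stood at 97.2 and 6.10 CPM in PLA4 with 0 counts in PL1, and Dsc3, a desmosomal cadherin, at 15.6 and 53.5 CPM in PLA4 against 0.0230 and 0.0352 CPM in PL1. Ly6k and Dsc3 met the same rule in PLA over PL12, and the other 8 genes did not.

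In PL1 11 genes were on that were off in PLA4. Beside the Y-linked genes, Sorcs1 and Gm10451 they were Igf2bp1, Hoxb4, Xlr3a, Gm16867 and Gm47015. Igf2bp1, an RNA-binding protein of fetal tissue, stood at 0.0851 and 0.0692 CPM in PLA4 against 10.4 and 10.9 CPM in PL1 (log2 fold change -7.09 ± 0.44, adjusted p = 0.0573, edgeR). It alone of the 11 followed the same rule in the other pair, with 0.00812 and 0.0254 CPM in PLA against 29.9 and 30 CPM in PL12. Xlr3a belongs to an X-linked multigene family whose copies share reads, so its value is uncertain. It stood at 0.0387 and 0.0346 CPM in PLA4 against 13.9 and 24.8 CPM in PL1.

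The 24 genes named for the largest differences, 12 in each direction, were called genes first and then filled in order of unadjusted p. All 24 were called on 8 libraries, and those not called on 4 libraries had adjusted p of 0.0573 to 0.0812 (higher in PLA4) and 0.0573 to 0.128 (lower in PLA4) in edgeR. Among those with higher levels, Adgrb1, an adhesion receptor that binds phosphatidylserine, stood at 14.0 and 14.2 CPM in PLA4 against 0.334 and 0.300 CPM in PL1. Hspb8, a small heat shock protein, stood at 49.5 and 49.7 CPM in PLA4 against 6.85 and 7.68 CPM in PL1. Atp2b4, a calcium pump of the plasma membrane, stood at 58.5 and 41.6 CPM in PLA4 against 1.98 and 2.69 CPM in PL1. These 3 genes had close replicates in both lines. Lrrc32, which encodes GARP, a surface anchor of latent TGF-beta, stood at 71.2 and 77.5 CPM in PLA4 against 12.1 and 13.9 CPM in PL1 (log2 fold change 2.51 ± 0.19). Cntln, a centrosomal protein, stood at 13.5 and 16.9 CPM in PLA4 against 0.518 and 0.608 CPM in PL1. Ndufs5-ps is a pseudogene whose reads may come from its parent gene, and it stood at 10.9 and 9.40 CPM in PLA4 against 0.276 and 0.291 CPM in PL1.

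On the other side, Ulbp1, a ligand of the receptor NKG2D on natural killer cells, stood at 3.41 and 2.05 CPM in PLA4 against 210 and 125 CPM in PL1 (log2 fold change -5.94 ± 0.47, adjusted p = 0.0812, edgeR). The zinc finger gene Zfp605 stood at 0.302 and 0.339 CPM in PLA4 against 5.75 and 6.78 CPM in PL1. Zik1, another zinc finger gene, had 0 counts in PLA4 against 6.73 and 4.60 CPM in PL1, at least 504-fold lower with PLA4 set to the floor. Peak1, a pseudokinase of the cytoskeleton, stood at 17.8 and 15.1 CPM in PLA4 against 60.4 and 73.8 CPM in PL1. In these 4 genes the libraries of the lines lay well apart. Stk11, which encodes the kinase LKB1, stood at 23.5 and 28.9 CPM in PLA4 against 18.97 and 23.83 CPM in PL1, and these ranges overlapped.

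The lines PLA and PL12 form a second pair with the same difference in Ackr3 and share no library with PLA4 and PL1. In that pair edgeR called 12416 of 17415 genes on its own 4 libraries (71.3%), whose replicates were close. Of the 16185 genes tested in both pairs, 2 were called in both in the same direction (0.0124%) and 5 in opposite directions (0.0309%). Edar stood at 5.34 and 6.18 CPM in PLA against 1.21 and 1.09 CPM in PL12 (log2 fold change 2.25, adjusted p = 2.17e-05, edgeR). Sorcs1 stood at 1.42 and 1.16 CPM in PLA against 2.84 and 2.56 CPM in PL12 (log2 fold change -1.14, adjusted p = 0.00140, edgeR). The 5 genes called in opposite directions were the 4 Y-linked genes and Gm10451. Itgb8 was not called in PLA over PL12 (log2 fold change -0.26, adjusted p = 0.175, edgeR), and Bmp5 was too low there to be tested.

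Of the 1514 genes called between PLA4 and PL1 on 8 libraries and tested in both pairs, 860 (56.8%) were called in the same direction in PLA over PL12, 379 (25%) in the opposite direction and 275 (18.2%) were not called there. Over all 17415 genes tested in the second pair 71.3% were called, 6212 higher in PLA and 6204 lower. The fit on 8 libraries takes part of its spread from PLA and PL12, so the 2 sets of calls are not independent. A direct test of the difference between the pairs, on all 8 libraries, called 3872 of 18648 genes (20.8%). That count was 825 and 854 without PL12 replicates 1 and 2, and 642 and 595 without PLA replicates 1 and 2. The 24 named genes were chosen for their differences between PLA4 and PL1, and that test uses the same libraries, so a high count among them was built in. It called 22 of them, and not Lrrc32 and Ackr3. Lrrc32 was close in size in both pairs, with 7.01 and 6.90 CPM in PLA against 1.13 and 1.02 CPM in PL12 (log2 fold change 2.63). The direction was the same and called in the second pair for 6 of the 12 genes higher in PLA4 and 6 of the 12 lower in PLA4. It was opposite and called there for 2 of the genes higher in PLA4 (Cntln and Efemp1) and for 5 of those lower in PLA4 (the 4 Y-linked genes and Xlr3a). Among the genes called in the same direction, Ackr3 had its direction set by the choice of the pairs. Xist, also among them, was under 1 CPM in both lines of the second pair.

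**Figure D2:**
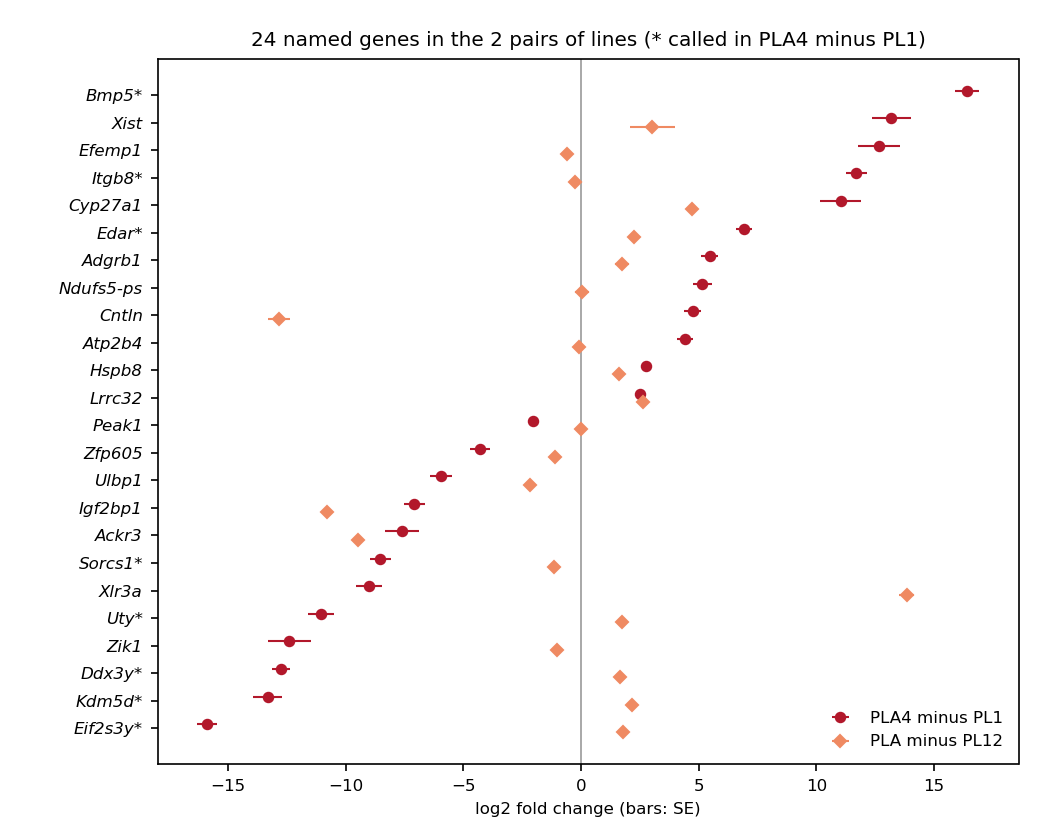
The log2 fold change (points) and its SE (bars) of the 24 named genes in PLA4 minus PL1 (circles) and PLA minus PL12 (diamonds). Bmp5 has no second point because it was too low in PLA and PL12 to be tested, and the Y-linked genes, Xlr3a, Cntln and Efemp1 lie on opposite sides of 0 in the 2 pairs. Itgb8, Atp2b4 and Peak1 do so too, with no call between PLA and PL12.

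Genes were also described by role, in lists of known members. In each list, members whose PLA4 and PL1 libraries did not overlap are set against 26.1% higher and 24.7% lower over all genes. Members were counted among the 17198 genes tested on 4 libraries, of which the fit on 8 libraries called 849 higher and 717 lower. Over the 18648 genes of that fit the shares were 4.61% and 3.93%. On the 4 libraries the only listed members called were Itgb8 and the 4 Y-linked genes. The other called genes, Bmp5, Edar, Sorcs1 and Gm10451, were in none of the lists. Over all genes the median log2 fold change was 0.005.

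The Hox genes, transcription factors that carry positional identity, were at lower levels in PLA4. Of 39 Hox genes, 17 were expressed enough to be tested, which favours genes high in one of the lines. Both PLA4 libraries lay below both PL1 libraries in 14 of the 17 and above them in 1, and 10 were called lower on 8 libraries. Among the lower genes, Hoxa2, Hoxa6, Hoxa9, Hoxa10, Hoxb2, Hoxb6 and Hoxb7 were under 1 CPM in both PL1 libraries too. Hoxa6, Hoxa9, Hoxa10, Hoxb2 and Hoxb6 were among those called. Hoxb3 had 0 counts in PLA4 against 3.96 and 4.65 CPM in PL1. Hoxb4 stood at 0.0155 and 0 CPM in PLA4 against 8.84 and 10.7 CPM in PL1 (adjusted p = 0.128 on 4 libraries and 0.00490 on 8, edgeR). Both were also low in PLA, at 0 CPM and at 0.0731 and 0.0339 CPM, and expressed in PL12. Hoxa7 stood at 0.00774 and 1.27 CPM in PLA4 against 23.95 and 22.84 CPM in PL1, while PLA and PL12 held 0.923 to 1.53 CPM. The high level of Hoxa7 was thus seen in PL1 among the 4 lines. Hoxb9, at the other end of the Hoxb cluster from Hoxb3, was the exception, at 14.6 and 32.5 CPM in PLA4 against 0 and 2.41 CPM in PL1. Hoxc13, a factor of hair and nail, differed between libraries of a line, at 0.759 and 30.2 CPM in PLA4 and 5.66 and 0.317 CPM in PL1.

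**Figure D3:**
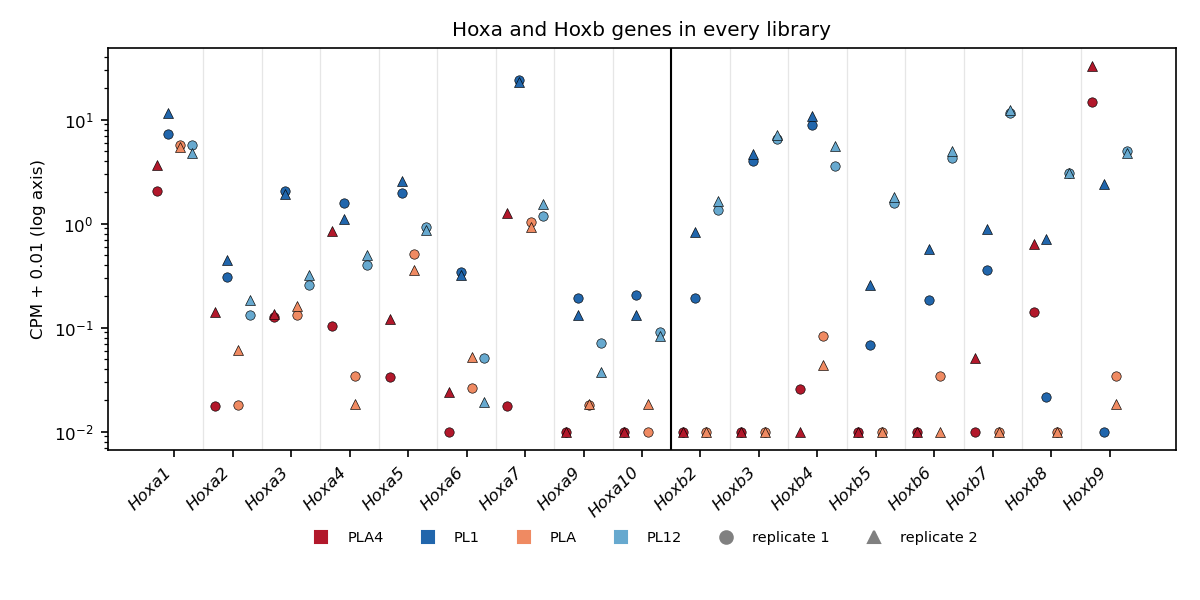
Levels of Hoxa and Hoxb genes in every library, as CPM + 0.01 on a log axis, in the order of their numbers within each cluster. PLA4 lies below PL1 in Hoxb3 and Hoxb4 and above it in Hoxb9.

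Genes induced by ERK signalling, the kinase cascade downstream of receptor tyrosine kinases and RAS, were mostly at lower levels in PLA4. Of 31, 19 (61.3%) did not overlap and were lower, 4 (12.9%) did not overlap and were higher, and 12 were called lower and 3 higher on 8 libraries, with a median log2 fold change of -1.15. Etv4, an ETS factor, stood at 0.201 and 0.125 CPM in PLA4 against 10.2 and 5.23 CPM in PL1 (log2 fold change -5.56 ± 0.64, adjusted p = 0.00380 on 8 libraries, edgeR). Dusp6, a phosphatase that switches ERK off, stood at 28.8 and 24.5 CPM in PLA4 against 94.6 and 76.7 CPM in PL1. Both genes had every PLA4 library well below every PL1 library. The EGF receptor ligand Ereg stood at 0.813 and 0.0831 CPM in PLA4 against 26.2 and 33.0 CPM in PL1, and Areg, a ligand of the same receptor, at 5.72 and 1.17 CPM in PLA4 against 43.5 and 60.5 CPM in PL1. Fosl1, a subunit of AP-1, stood at 1.70 and 0.838 CPM in PLA4 against 12.3 and 9.35 CPM in PL1. Of the 4 that were higher, 3 were called on 8 libraries, namely Sprr1a, a cornified envelope protein, at 127 and 170 CPM in PLA4 against 30.03 and 31.27 CPM in PL1, Fosl2, at 550 and 644 CPM in PLA4 against 365 and 310 CPM in PL1, and Myc, at 98.6 and 107 CPM in PLA4 against 75.4 and 60.1 CPM in PL1. The other, the ephrin receptor Epha4, stood at 54.6 and 102 CPM in PLA4 against 41.8 and 45.9 CPM in PL1 and was not called.

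Cytokines and related factors that draw in neutrophils and myeloid cells had a similar pattern. Of 34, 18 (52.9%) did not overlap and were lower in PLA4 and 4 (11.8%) were higher, and 9 were called lower and 2 higher on 8 libraries, with a median log2 fold change of -1.53. Cxcl1, a ligand of the neutrophil receptor CXCR2, stood at 38.7 and 63.6 CPM in PLA4 against 285 and 467 CPM in PL1. Il1a, which encodes interleukin-1 alpha, stood at 20.1 and 14.9 CPM in PLA4 against 90.3 and 166 CPM in PL1. Ptgs2, the enzyme COX-2 of prostaglandin synthesis, stood at 29.7 and 42.9 CPM in PLA4 against 211 and 525 CPM in PL1. In these 3 genes PL1 replicate 2 was the highest library. Il18 was among those higher, at 45.9 and 27.5 CPM in PLA4 against 16.5 and 13.8 CPM in PL1. The fibroblast markers summed to 8.32 CPM in PL1 replicate 1 and 295 CPM in PL1 replicate 2. Their part in these levels was not tested.

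Chaperones of the endoplasmic reticulum stood lower in PLA4 by small steps. Of 18, 14 (77.8%) did not overlap and were lower, 0 were higher, and 5 were called lower on 8 libraries, with a median log2 fold change of -0.67. Pdia6, a disulfide isomerase, stood at 131 and 143 CPM in PLA4 against 223 and 241 CPM in PL1, and Calr, the chaperone calreticulin, at 617 and 660 CPM in PLA4 against 997 and 981 CPM in PL1. Hspa5, the main chaperone BiP, stood at 589 and 473 CPM in PLA4 against 596 and 1570 CPM in PL1, so its gap was narrow and PL1 replicate 2 stood apart. Of 32 genes of glycolysis and hypoxia, 17 (53.1%) did not overlap and were lower and 2 (6.25%) were higher, but 3 were called lower and 1 higher on 8 libraries. The list's mean log2(CPM + 1) was 5.44 and 5.91 in PLA4 against 5.89 and 6.43 in PL1, so the lines overlapped and PL1 replicate 2 stood apart. Pfkp, a phosphofructokinase, stood at 4.497 and 9.574 CPM in PLA4 against 45.8 and 77.5 CPM in PL1. Slc16a3, the lactate exporter MCT4, went the other way, at 23.1 and 4.24 CPM in PLA4 against 0.426 and 0.291 CPM in PL1.

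Of 36 S phase genes, 16 (44.4%) did not overlap and were lower in PLA4, 0 were higher, and 6 were called lower on 8 libraries. Rrm2, a subunit of ribonucleotide reductase, stood at 41.4 and 61.7 CPM in PLA4 against 189 and 127 CPM in PL1. Mki67, the proliferation marker Ki-67, stood at 160 and 310 CPM in PLA4 against 567 and 321 CPM in PL1, where PLA4 replicate 2 and PL1 replicate 2 were close. The list's median log2 fold change was -0.43.

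Genes of the cornified envelope and of desmosomes, the junctions that anchor keratins, mostly stood higher in PLA4, while those of tight and adherens junctions did not. Of 25 tested genes of the cornified envelope, the crosslinked protein shell of dying keratinocytes, 14 (56.0%) did not overlap and were higher, 3 (12%) were lower, and 7 were called higher on 8 libraries, with a median log2 fold change of 1.76. Ppl, the envelope protein periplakin, stood at 90.9 and 124 CPM in PLA4 against 36.1 and 33.6 CPM in PL1, and Evpl, envoplakin, at 216 and 105 CPM in PLA4 against 37.4 and 25.9 CPM in PL1. Tgm1, the transglutaminase that crosslinks the envelope, stood at 2.57 and 3.29 CPM in PLA4 against 0.518 and 0.423 CPM in PL1. Dmkn, the secreted keratinocyte protein dermokine, stood at 111 and 273 CPM in PLA4 against 15.05 and 3.73 CPM in PL1. These 4 genes were separated in every library, while Sprr2d stood lower, at 31.0 and 55.4 CPM in PLA4 against 91.6 and 231 CPM in PL1.

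Of 11 desmosome genes, 8 (72.7%) did not overlap and were higher in PLA4 and 0 were lower, with 4 called higher on 8 libraries. Perp, a membrane protein of desmosomes, stood at 3704 and 4326 CPM in PLA4 against 1199 and 957 CPM in PL1, and Dsg2, a desmosomal cadherin, at 271 and 219 CPM in PLA4 against 108 and 93.8 CPM in PL1. Of 24 genes of tight and adherens junctions, 2 (8.33%) did not overlap and were higher and 6 (25%) were lower, with 1 called higher and 0 lower on 8 libraries and a median log2 fold change of -0.18. Cldn8, a claudin, stood at 10.8 and 6.14 CPM in PLA4 against 1.44 and 2.39 CPM in PL1. Tjp1, which encodes the tight junction scaffold ZO-1, stood at 164 and 156 CPM in PLA4 against 213 and 226 CPM in PL1, and Cdh1, E-cadherin, at 729 and 702 CPM in PLA4 against 789 and 637 CPM in PL1, where the ranges overlapped. Of 25 squamous lineage genes and basal keratins, 6 (24%) did not overlap and were higher and 3 (12%) were lower, and 3 (12%) were called higher and 0 lower on 8 libraries. Those called were Sox2, Bcl11a and Krt6b. Sox2, a lineage factor of squamous tumours, stood at 131 and 109 CPM in PLA4 against 69.3 and 70.1 CPM in PL1, and Krt14 at 7054 and 7598 CPM in PLA4 against 7812 and 3147 CPM in PL1. Of 18 members of the Ly6 superfamily tested, 10 (55.6%) did not overlap and were higher and 1 (5.56%) was lower, with 4 called higher and 0 lower on 8 libraries. Ly6d, a marker of stratified epithelium, stood at 13.1 and 88.6 CPM in PLA4 against 0.840 and 1.20 CPM in PL1.

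**Figure D4:**
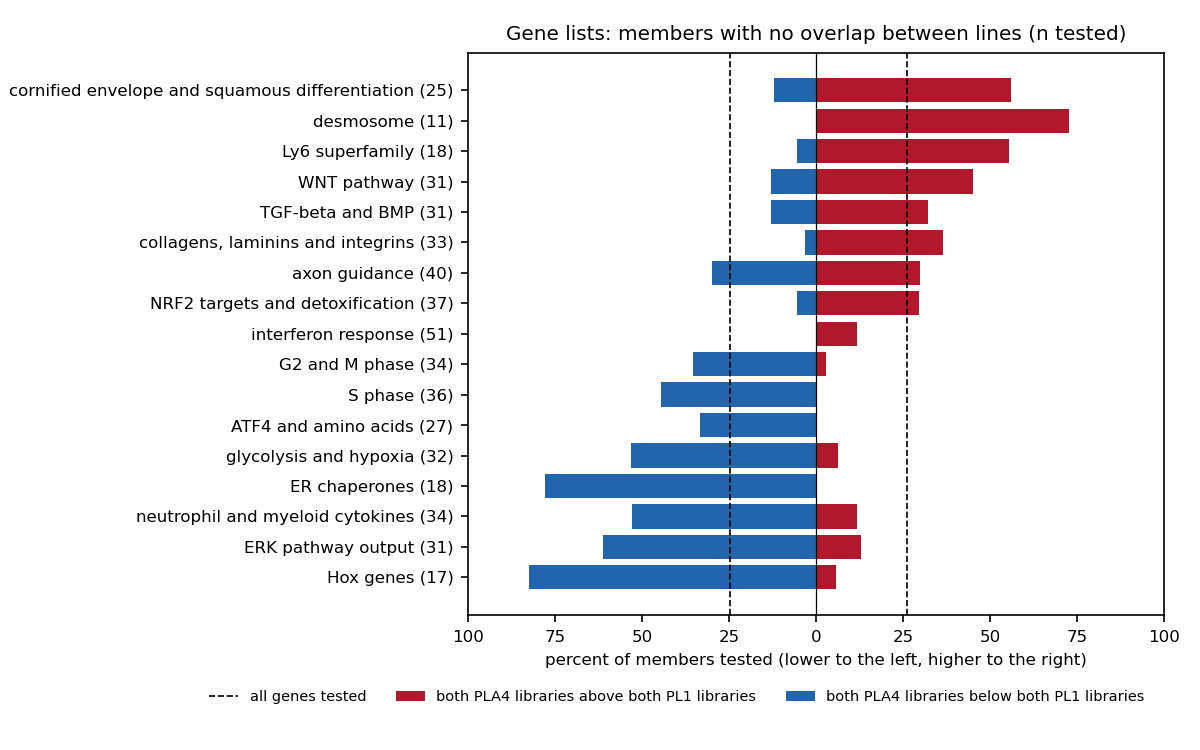
Percent of the tested members of 17 gene lists whose PLA4 libraries both lay above (right) or both below (left) the PL1 libraries, with the number of members tested in brackets and dashed lines at the shares over all genes. Of the lists shown, desmosome and cornified envelope genes extend furthest to the right, and Hox genes and chaperones of the endoplasmic reticulum furthest to the left.

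Signalling genes outside ERK stood on both sides. Of 31 WNT pathway genes, 14 (45.2%) did not overlap and were higher in PLA4 and 4 (12.9%) were lower, and 8 were called higher and 2 lower on 8 libraries. The ligand Wnt7b stood at 258 and 146 CPM in PLA4 against 47.5 and 58.8 CPM in PL1, the ligand Wnt4 at 293 and 257 CPM in PLA4 against 146 and 140 CPM in PL1, and the receptor Fzd5 at 28.8 and 19.3 CPM in PLA4 against 54.8 and 64.0 CPM in PL1. The list of TGF-beta and BMP pathway genes did not include Bmp5. Of its 31 tested genes, 10 (32.3%) did not overlap and were higher and 4 (12.9%) were lower. On 8 libraries 4 were called higher and 1 lower. Fstl1, a secreted binding protein of BMP ligands, stood at 436 and 713 CPM in PLA4 against 53.7 and 38.1 CPM in PL1, and Tgfb2, a TGF-beta ligand, at 91.5 and 144 CPM in PLA4 against 53.8 and 52.7 CPM in PL1. Tgfb3 stood at 62.3 and 29.5 CPM in PLA4 against 0.150 and 2.07 CPM in PL1. In each of these 6 genes the libraries of the lines did not overlap.

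Of 40 axon guidance genes, 12 (30%) did not overlap and were higher and 12 (30%) were lower, with 8 called higher and 2 lower on 8 libraries. The netrin receptor Dcc stood at 16.8 and 20.3 CPM in PLA4 against 1.21 and 0.573 CPM in PL1, and Sema3d, a secreted semaphorin, at 11.3 and 21.1 CPM in PLA4 against 0.817 and 1.08 CPM in PL1. Unc5c, another netrin receptor, stood at 0.0774 and 0 CPM in PLA4 against 44.4 and 2.65 CPM in PL1. Of 37 NRF2 targets and detoxification genes, 11 (29.7%) did not overlap and were higher and 2 (5.41%) were lower, and 6 were called higher and 1 lower on 8 libraries. Aldh1a1, a retinaldehyde dehydrogenase, stood at 89.2 and 34.7 CPM in PLA4 against 0.357 and 0.432 CPM in PL1. Slc7a11, the cystine transporter, stood at 23.8 and 32.5 CPM in PLA4 against 114 and 248 CPM in PL1. Of 51 interferon response genes, 6 (11.8%) did not overlap and were higher, 0 were lower and 0 were called on 8 libraries. Gbp2, a guanylate-binding protein induced by interferon, stood at 165 and 27.5 CPM in PLA4 against 23.4 and 25.2 CPM in PL1, so a single PLA4 library stood apart.

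Within the ACKR3 axis 11 of 16 genes were tested. Apart from Ackr3 itself, 1 member did not overlap between the lines. Ramp3, an accessory protein of the adrenomedullin receptor, stood at 10.1 and 13.5 CPM in PLA4 against 18.01 and 52.2 CPM in PL1 (log2 fold change -1.58 ± 0.57, adjusted p = 0.318, edgeR), and the PL1 libraries were far apart.

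Differences of many genes ran along whole chromosomes in some cases and changed sign within a chromosome in others. For 12519 genes that averaged 1 CPM or more, the median log2 difference of PLA4 and PL1 was taken by chromosome, and over all of them it was 7e-04. Over all 17198 genes tested, both PLA4 libraries lay above both PL1 libraries in 26.1% and below them in 24.7%. On chromosome 10, where Edar lies, the median over 598 genes was 0.41, the 4 pairs of libraries gave 0.35 to 0.49, and 362 genes (60.5%) had both PLA4 libraries above both PL1 libraries. All 7 windows of 20 Mb along it had a median above 0, so the shift spanned the chromosome. Chromosome 14 was the lowest, with a median of -0.38 over 427 genes, pairs of libraries at -0.48 to -0.25, and 247 genes (57.8%) lower, and all 7 of its windows were below 0. Chromosome 1, where Ackr3 lies, had a median of -0.30 over 751 genes (pairs at -0.35 to -0.27) and 10 of 10 windows below 0. Of the 20 chromosomes counted (1 to 19 and X), 11 had all 4 pairs of libraries on one side of 0, 5 above and 6 below. In 10 of the 11 all windows lay on that side too. The exception was chromosome 12, where the pairs gave 0.01 to 0.10 and the windows split, with the first 3 at -0.42 to -0.39 and the other 3 at 0.20 to 0.25. Signs also changed along chromosome 5, with 4 windows at 0.23 to 0.38 followed by one at -0.27. On chromosome 17 a window at -0.37 was followed by a later one at 0.28. Windows used line means, so they do not show single libraries. Over the whole chromosome, pairs of libraries ran from -0.05 to 0.22 on chromosome 5 and from -0.26 to 0.04 on chromosome 17. Replicate 1 minus replicate 2 of PLA4 was -0.23 on chromosome 5 and -0.28 on chromosome 17.

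The libraries of PLA4 differed from each other by chromosome as well. Replicate 1 minus replicate 2 of PLA4 ran from -0.31 on chromosome 6 to 0.43 on chromosome 15. The same difference ran from -0.08 to 0.14 in PL1, from -0.004 to 0.02 in PLA and from -0.03 to 0.10 in PL12. On chromosome 15 the median of PLA4 minus PL1 was 0.40, but pairs of libraries ran from 0.12 to 0.66, with the higher values for PLA4 replicate 1. For 7 chromosomes (1, 2, 4, 9, 10, 14 and 18) every pair of libraries gave a difference larger than those within PLA4 and within PL1. The medians of chromosomes 2 and 18 were 0.21 and 0.18, and those of chromosomes 4 and 9 -0.19 and -0.17. The margin was slight on chromosome 4, with a smallest pair of -0.1035 against 0.1003 within PL1. It was slight too on chromosome 9, at -0.1032 against 0.1017 within PLA4. DNA copy number was not analysed here. Of 15 genes on the mitochondrial chromosome, 13 had both PLA4 libraries above both PL1 libraries (86.7%, against 26.1% of all genes tested), and 1 had them below. Its median difference was 0.59, with pairs of libraries at 0.16 to 0.80. Replicate 1 minus replicate 2 was -0.35 in PLA4 and -0.37 in PL1, larger in size than the smallest pair. Mitochondrial genes took 2.47% and 2.84% of counts in PLA4 against 1.55% and 2.00% in PL1.

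**Figure D5:**
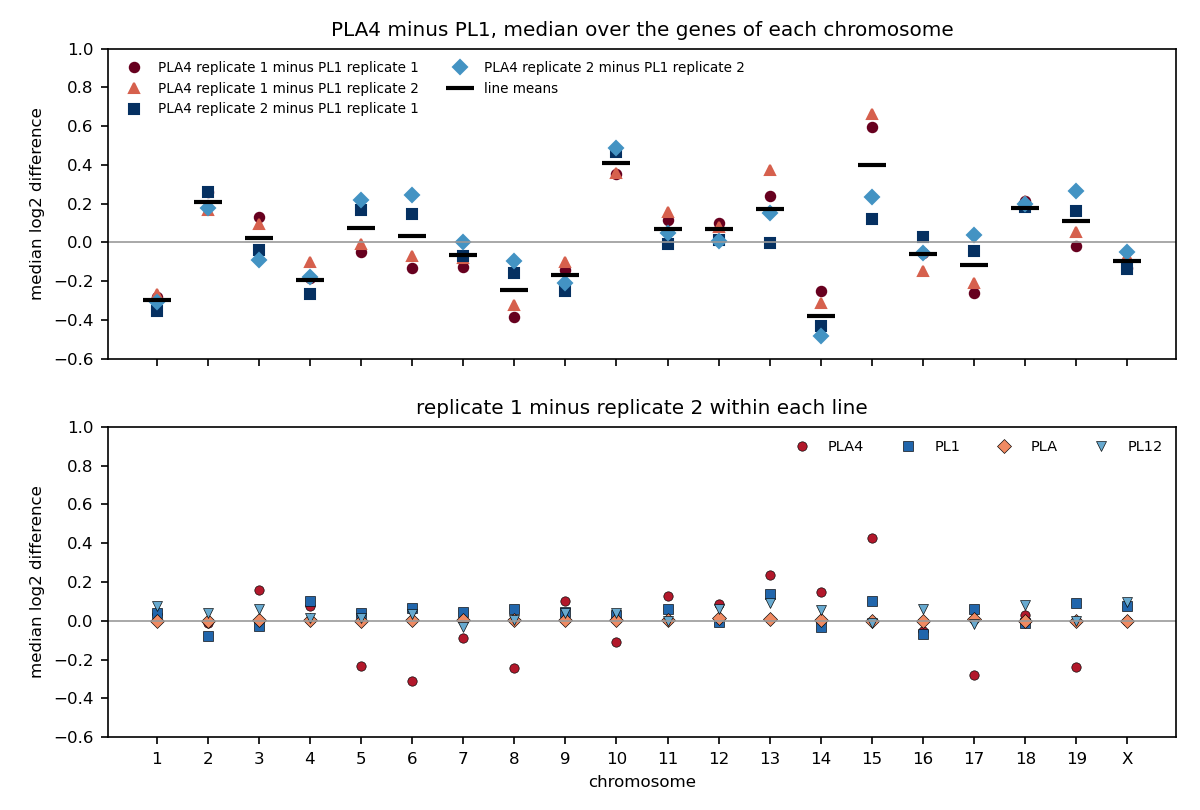
Median log2 difference over the genes of each chromosome, for the 4 pairs of a PLA4 and a PL1 library (upper panel) and for replicate 1 minus replicate 2 within each line (lower panel). Chromosome 10 lies above 0 and chromosomes 1 and 14 below 0 in all 4 pairs, while the PLA4 replicates differ most on chromosomes 6 and 15.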

How the data were processed

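RNA-seq libraries of 4 mouse LUSC lines, 2 per line, were analysed from the tables the authors deposited. Per the labels' protocols, column-purified RNA was made into cDNA with SMARTer and into libraries with Nextera XT. The tools named in the submitters' processing notes are STAR, RSEM, FastQC and DESeq2, on GRCm38, without versions. The annotation behind the counts is not stated there. Per the file headers, the authors deposited expected counts per gene and TPM. The expected counts covered 55487 genes, and 14.2% of values were not whole, so they were rounded. RSEM shares reads of similar genes, which makes values of gene families and pseudogenes uncertain.

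PLA4 was compared with PL1 with edgeR 4.0.16 (quasi-likelihood, TMM, filterByExpr with a minimum count of 10 and total of 15) under R 4.3.3 on their 4 libraries, PLA with PL12 on theirs, and the difference of the pairs on all 8, with Benjamini-Hochberg adjustment at 0.05. SE came from the F statistic. CPM used TMM factors of all 8 libraries. Alternatives were DESeq2 1.42.0, its size factors, no filter, at least 1 CPM in both libraries of a line, a 1.5-fold minimum, limma 3.58.1 on log2(TPM + 1), the replicate block, the 8-library fit and each library left out. Coordinates are from GENCODE mouse release 21, matched by 55227 identifiers, and upstream sequences from RefSeq. Intervals (95%, exact) and floors of 3 counts over both libraries of a line cover counting error only. Tests were first run on simulated data.

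Genes were named by rule, namely Ackr3, Stk11, called genes with the 12 largest differences in each direction, at least 5 CPM and a plain symbol, open places filled with genes whose libraries did not overlap by smallest unadjusted p, the largest called in both pairs with the same or with opposite sign, and up to 4 members of a gene list with the smallest p. The pair, lists and rule were chosen with earlier results of these data known. Genes on in one line only and further list members were named after their values were seen.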

Additional observations from a re-analysis of the deposited data

Results flagged for a closer look

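The difference between PLA4 and PL1 was not the same as that between PLA and PL12 for 22 of the 24 named genes, by edgeR's test of the difference itself on all 8 libraries (adjusted p from 0.000176 to 0.0344). Over all genes that test called 20.8%. The 24 were chosen for large differences between PLA4 and PL1 in the same libraries, which builds in a high count, so the values are a description. Values are log2 differences, PLA4 minus PL1 less PLA minus PL12. Where a line had 0 counts they depend on the prior count and are no measure of size. Among genes higher in PLA4 they were 13.97 for Bmp5, 11.90 for Itgb8, 4.61 for Edar, 10.05 for Xist, 3.61 for Adgrb1, 13.20 for Efemp1, 1.05 for Hspb8, 4.43 for Atp2b4, 17.69 for Cntln, 4.998 for Ndufs5-ps and 6.21 for Cyp27a1. Cntln had 0 counts in PLA against 10.4 and 7.58 CPM in PL12, the opposite order to PLA4 and PL1.

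Among genes lower in PLA4 the log2 differences were -17.65 for Eif2s3y, -15.53 for Kdm5d, -14.46 for Ddx3y, -12.86 for Uty, -7.46 for Sorcs1, -23.00 for Xlr3a, -3.83 for Ulbp1, -3.25 for Zfp605, -11.32 for Zik1 and -2.12 for Peak1. Igf2bp1 had 3.63, since its difference was larger between PLA and PL12. Edar, Xist, Adgrb1, Hspb8, Cyp27a1, Sorcs1, Ulbp1, Zfp605 and Zik1 were called in the second pair with the same direction and had a larger difference between PLA4 and PL1. Xist was very low in that pair, at 0.244 and 0.245 CPM in PLA against 0.0818 and 0 CPM in PL12.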

How the results depend on the processing

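The count of genes called between PLA4 and PL1 (9, all of them separated) was 9 with DESeq2's size factors and with a 1.5-fold minimum. It was 1482 with DESeq2's test (1476 separated), 609 without a filter, 14 with at least 1 CPM in both libraries of a line, 1593 on all 8 libraries and 0 with limma on log2(TPM + 1). Without any 1 library it was 0 (0 to 0), where the lone library is assumed to vary like the other line and 1 residual degree of freedom is left. With the replicate block it was 0, and 0 with the crossed pairing, chosen after seeing the data. Same-numbered libraries deviated with r = -0.197 in PLA4 and PL1 and -0.173 in PLA and PL12. A correlation across genes cannot show whether libraries were prepared as pairs. The same-direction count in both pairs (2) was 749 with DESeq2, 301 without a filter, 4 with the stricter one, 0 with the replicate block, 678 on 8 libraries and 0 to 2 with a library left out. PLA minus PL12 gave 7035 genes on 8 libraries and 10493 to 13463 with a library left out, and the test between the pairs 595 to 4942. The causes were not tested.

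Of the values of named genes and list members under these settings, 1424 kept their side of the threshold, 296 passed where they had not, 48 no longer passed and 10 turned sign. With 1 library left out, the log2 fold change ran from -0.73 to 4.89 for Ramp1 (below 0 without PLA4 replicate 1), -4.26 to 2.26 for Cxcl12, -3.08 to 3.25 for Sftpd, -6.42 to 2.97 for Col3a1, -8.18 to 2.03 for Col1a1 and -0.46 to 1.82 for Ncam1 (turned without PL1 replicate 2). It ran from -0.83 to 0.54 for Vwf and -2.42 to 2.14 for Uchl1 (turned without PL1 replicate 1, Vwf also at 0.22 without PLA4 replicate 1) and from -0.20 to 0.85 for Ifi30 (turned without PLA4 replicate 2). None of these 9 genes was called. The medians of chromosomes 1, 10 and 14 ran from -0.34 to -0.18, 0.30 to 0.47 and -0.45 to -0.27 over 7 settings chosen after seeing the data. Those of chromosomes 2, 4, 9 and 18 ran from 0.15 to 0.27, -0.23 to -0.13, -0.23 to -0.10 and 0.10 to 0.21. Depth limits genes near the floor of 3 counts.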

Other observations

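Over 2-fold differences within the lines ran in opposite directions by number. Of the genes over 2-fold apart in CPM + 1 in both PLA4 and PL1, 284 were higher in different replicate numbers and 91 in the same number. Krt18, the partner of Krt8, stood at 406 and 17.4 CPM in PLA4 and at 38.9 and 44.9 CPM in PL1. Mesenchymal and matrix genes set PL1 replicate 2 apart, with Dcn at 10.7 CPM against 0.0230 CPM in replicate 1.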
